A study of Mus musculus with 7 samples.

Results

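The genes of the proteasome were followed as a group through 7 single-cell libraries of activated mouse T cells. They were taken by symbol: every gene named Psma, Psmb, Psmc, Psmd, Psme, Psmf or Psmg plus a number, without Psmb8, Psmb9 and Psmb10, the core subunits that interferon induces. This rule found 45 of the 27998 genes in the files. No measured value entered the rule, but the group was chosen with earlier results of these data known. It gave 16 core genes (8 Psma, 8 Psmb), 20 regulatory genes (6 Psmc, 14 Psmd) and 9 others (4 Psme, 1 Psmf, 4 Psmg). The group is wider than its label, since the Psmg genes and Psmd5, Psmd9 and Psmd10 encode assembly chaperones, the Psme genes encode activators and Psmf1 an inhibitor, none of them a stable subunit of the standard particle.

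The proteasome is the protease that degrades proteins tagged with ubiquitin, and it supplies peptides for presentation on MHC class I. Its barrel-shaped core is built of outer rings of alpha subunits (Psma) and inner rings of beta subunits (Psmb), of which Psmb5, Psmb6 and Psmb7 carry the catalytic sites. A regulatory particle caps the barrel: the Psmc ATPases unfold the substrate and thread it into the core, and most Psmd proteins form the lid and base around them. In activated lymphocytes Psmb8, Psmb9 and Psmb10 can take the places of Psmb5, Psmb6 and Psmb7, which makes the immunoproteasome.

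Transcription of proteasome genes is known to be adjusted together by the factor Nfe2l1, which acts through antioxidant response elements, so the bases before the starts of 5 of them are shown: Psma4 and Psmb5, among the genes with the greatest differences between the days, Psma3, the core gene that stood apart from them, and Psmb3 and Psmd13, with the greatest differences among the genes higher in CD8-like than in CD4-like cells. Each line gives 150 bases that end just before the RefSeq start (GRCm38.p6), 5′ to 3′ on the strand of the gene. In the GENCODE annotation (vM21), which sets some starts farther upstream, the Psmd13 stretch lies inside the gene and the other 4 overlap its first bases. Capitals mark the CCAAT box (CCAAT, or ATTGG on the other strand) and the core of the antioxidant response element (TGANNNNGC, on either strand), 2 motifs that do not overlap in the lines shown.
Psma3, chr12:70974473-70974622, plus strand: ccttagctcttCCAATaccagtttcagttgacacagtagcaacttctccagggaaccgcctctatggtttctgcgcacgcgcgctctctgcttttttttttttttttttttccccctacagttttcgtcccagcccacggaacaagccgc
Psma4, chr9:54950709-54950858, plus strand: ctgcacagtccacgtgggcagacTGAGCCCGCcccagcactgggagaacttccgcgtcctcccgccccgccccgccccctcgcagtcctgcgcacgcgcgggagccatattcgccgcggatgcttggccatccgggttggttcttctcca
Psmb3, chr11:97703284-97703433, plus strand: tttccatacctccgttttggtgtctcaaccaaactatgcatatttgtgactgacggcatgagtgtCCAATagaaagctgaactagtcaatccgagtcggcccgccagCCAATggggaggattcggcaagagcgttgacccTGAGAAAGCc
Psmb5, chr14:54617996-54618145, minus strand: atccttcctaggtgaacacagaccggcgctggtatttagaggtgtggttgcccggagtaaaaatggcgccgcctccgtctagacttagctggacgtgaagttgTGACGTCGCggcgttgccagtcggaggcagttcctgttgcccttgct
Psmd13, chr7:140882244-140882393, plus strand: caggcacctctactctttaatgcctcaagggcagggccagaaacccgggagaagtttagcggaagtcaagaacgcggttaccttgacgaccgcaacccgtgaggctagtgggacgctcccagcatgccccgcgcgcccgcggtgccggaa

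Of the 45 genes, 37 had an entry in the RefSeq promoter table. Within 250 bases before a start, CCAAT was found on either strand in 13 of the 37 (35.1%), against 37.5% of the 27025 genes of the table. TGANNNNGC was found in 15 of the 37 (40.5%), against 38.7% of all genes. Both shares lay near those of all promoters. Among core genes 7 of 12 held CCAAT and 6 of 12 TGANNNNGC, and among regulatory genes 5 of 17 and 6 of 17 did. Psmb3 held both motifs in the stretch shown, Psma3 CCAAT alone, Psma4 and Psmb5 TGANNNNGC alone, and Psmd13 neither. A match is a run of letters and does not show that a factor binds.

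The T cells were sorted from the spleen of C57BL/6 animals given LCMV Armstrong, a strain of lymphocytic choriomeningitis virus that is cleared after an acute infection. A pair of day 7 wild-type libraries held all CD44high CD4+ and CD8+ T cells, sorted apart and mixed in equal parts before capture (total libraries). A further day 7 wild-type library held CD44high CD4+ cells that bind GP66:I-Ab, the class II tetramer of a viral glycoprotein peptide (GP66+ cells). The other 4 held CD44high GP66+ cells positive for a RosaYFP reporter, from Ox40-Cre+ Thpokwt/wt mice (Thpok-sufficient) and Ox40-Cre+ Thpokfl/fl mice (Thpok-deleted) at day 7 and day 30, with 1 library for each. Thpok is the transcription factor that keeps CD4+ T cells in their lineage. Cre was driven by the Ox40 promoter, which is used by activated T cells, and YFP marks cells in which Cre has acted, so the deletion concerns T cells after activation. The Thpok-sufficient mice carried Cre and the reporter too, and the wild-type mice, as labelled, neither. How many mice gave cells to each library is not stated in the labels, so the spread between libraries may be technical. No Thpok-deleted and no day 30 group had a second library. The p-values for genotype and day therefore do not measure a spread between replicates of those groups.

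Levels are given in CPM, the UMIs (unique molecular identifiers, each 1 captured transcript) of a gene scaled to the sum of its library and class. The transcript of Thpok, Zbtb7b, was at 25.8 CPM in wild-type, 32.3 in Thpok-sufficient and 0.111 in Thpok-deleted GP66+ cells of day 7. At day 30 it was at 24.2 in Thpok-sufficient and 0.470 in Thpok-deleted cells, so both deleted libraries matched their labels. Between 724 and 6655 T cells per library were analysed, with a median of 4009 to 5903 UMIs per cell at day 7 and of 2022 and 2434 at day 30. A list of 8 B cell genes summed to 60.7 CPM in the Thpok-deleted day 30 library, of which 48.9 came from Cd74, and to 7.73 to 26.6 elsewhere; the defining Ms4a1 and Cd79a were at 0.418 or less in every library and class. The Thpok-deleted day 30 library stood apart with 6282 CPM from 5 erythroid genes, against 0.199 to 283.6 elsewhere; the part of these transcripts in the results was not tested. The day 7 wild-type GP66+ library stood apart in a few transcripts, such as that of the ribosomal gene Fau, at 57.5 against 3278 to 6041 elsewhere. At most 15 cell barcodes were shared by 2 capture wells, 0.702% of the smaller one, with the 3 wells of total replicate 1 counted apart. CD4-like cells were those with a Cd4 UMI and none of Cd8a or Cd8b1, and CD8-like cells the reverse, which gave 1440 and 3480 cells in total replicate 1 and 550 and 1074 in replicate 2.

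All levels were summed over the cells of a library and class and scaled once over the 9 libraries and classes by TMM, a scaling that assumes most genes are alike. Since each UMI stands for 1 transcript end, levels were not divided by gene length. In such sums fewer cells with a transcript and less of it per cell cannot be told apart. The 45 genes together were at 6778 and 7036 CPM in CD4-like and 7262 and 7792 in CD8-like cells of the total libraries. They were at 7462 in wild-type, 7424 in Thpok-sufficient and 7453 in Thpok-deleted GP66+ cells of day 7. At day 30 they were at 3917 in Thpok-sufficient and 4358 in Thpok-deleted cells. The 7 sums of day 7 lay close together and both sums of day 30 lay well below all of them.

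**Figure D1:**
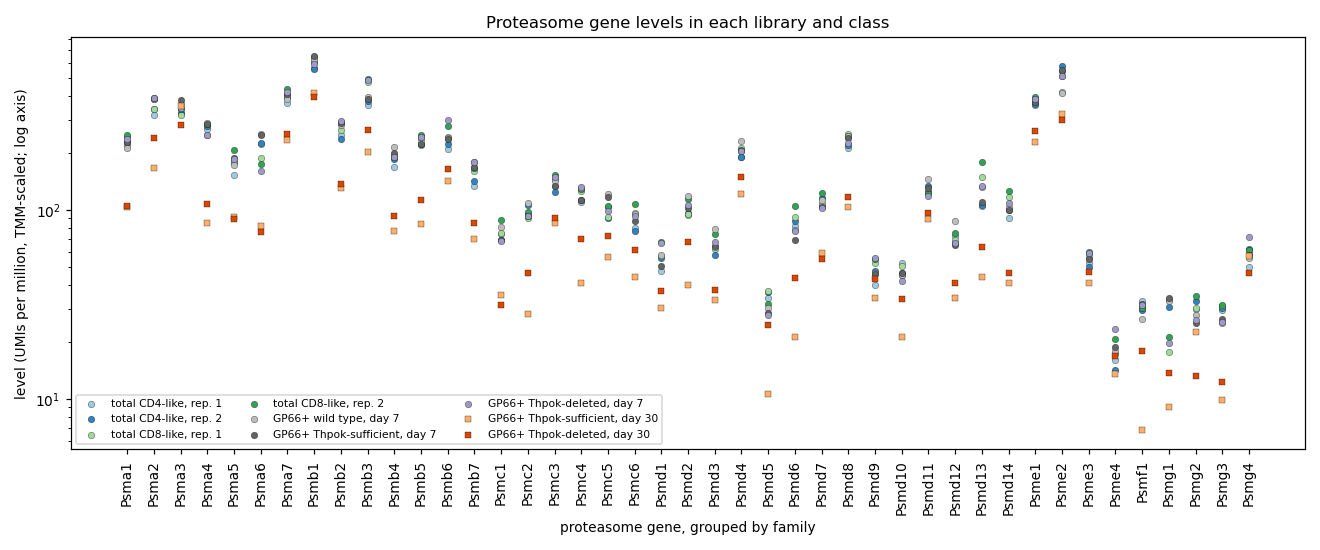
Level of each of the 43 tested proteasome genes (x axis, grouped by family) in CPM on a log axis, 1 point per library and class. Circles are day 7 and squares day 30: the squares lie below the circles for nearly all genes, and Psma3 is an exception.

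Psmb1, a beta subunit without a catalytic site in mammals, had the highest level of the core genes, between 557.3 and 650.7 in the 7 classes of day 7. Psma7 ranged from 366.4 to 437.2 and Psma2 from 315.2 to 392.0, the highest ranges of the alpha subunits with Psma3; Psma2 was above Psma7 in the wild-type GP66+ library. The catalytic subunit genes were lower: Psmb5 ranged from 219.4 to 248.1, Psmb6 from 209.0 to 296.7 and Psmb7 from 132.9 to 179.9. Neighbouring ranges of Psmb5 and Psmb6 overlapped, and that of Psmb7 lay below both. In the regulatory particle, the ubiquitin receptor Psmd4 (190.9 to 230.9) and the lid subunit Psmd8 (212.6 to 250.3) led the Psmd genes, with overlapping ranges. Of the ATPases Psmc3 was at 124.0 to 153.4, and Psmc4 at 110.3 to 132.2, a range that overlapped that of Psmc5. Of the activators, Psme1 and Psme2, which together form the interferon-inducible cap, were at 358.0 to 396.4 and at 412.9 to 579.0. Psme4, a large activator of another kind, was at 14.2 to 23.3. Of the assembly chaperones of the core, Psmg4 was the highest at 49.95 to 71.4, and Psmg1, Psmg2 and Psmg3 stayed between 17.7 and 34.9. Psma8, the alpha subunit of the testis, had 5 UMIs in all T cells, and Psmb11, the beta subunit of the thymic cortex, had 8. Neither reached the count minimum, which left 43 genes for testing. Of these, 10 share a near-identical stretch of their transcript end with another gene, a copy or an overlapping neighbour (at least 95% identity over 57 bases or more): Psma4, Psma5, Psmb3, Psmb5, Psmb7, Psmc1, Psmc3, Psmd1, Psmd2 and Psme2. Their counts may be split or lost between the genes.

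The share of proteasome transcripts in single cells was also lower at day 30. Proteasome genes held a median of 0.645% of a cell's UMIs in CD4-like and 0.645% in CD8-like cells of total replicate 1, and 0.735% and 0.769% in replicate 2. In GP66+ cells of day 7 the median was 0.745% in wild-type, 0.683% in Thpok-sufficient and 0.737% in Thpok-deleted cells. At day 30 it was 0.299% in Thpok-sufficient and 0.405% in Thpok-deleted cells. The upper quartiles of the Thpok-sufficient and Thpok-deleted day 30 cells, 0.405% and 0.507%, lay under the lower quartile of every day 7 class, of which the lowest was 0.517%. In transcripts this was a median of 27 to 45 proteasome UMIs per cell at day 7, and of 6 and 10 at day 30. Barcodes of at most 50 UMIs, which hold free RNA, also held smaller shares at day 30: 0.762% to 0.917% in the day 7 libraries, 0.375% at day 30 with intact Thpok and 0.576% at day 30 without it. The part of free RNA in the shares per cell was not tested.

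**Figure D2:**
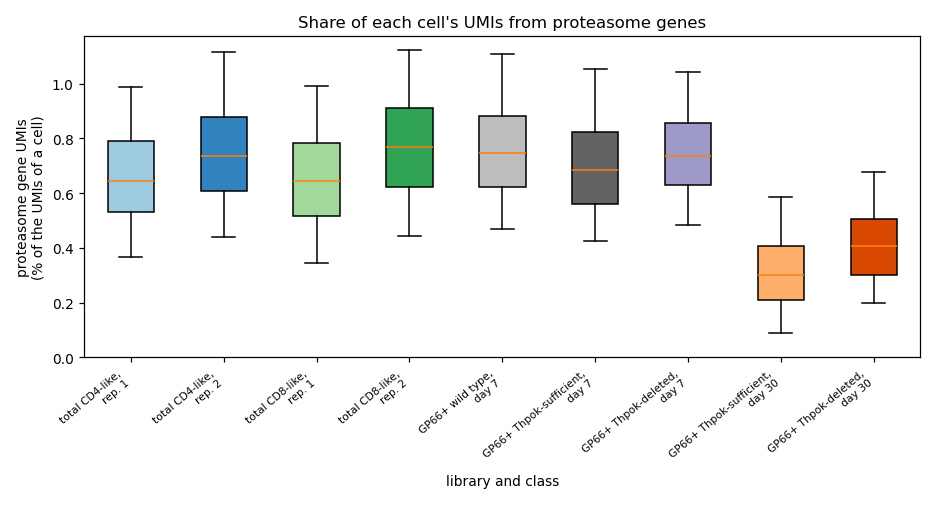
Share of each T cell's UMIs that came from the 45 proteasome genes (y axis, percent) by library and class; boxes are quartiles, the line the median and whiskers the 5th and 95th percentiles over cells. The medians of the 7 day 7 classes lie between 0.645% and 0.769%, and those of the day 30 libraries at 0.299% and 0.405%.

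Most proteasome genes were lower at day 30, after the virus is cleared, than at day 7, near the peak of the response. Between day 30 and day 7, 32 of the 43 genes fell and none rose in GP66+ cells, by edgeR's quasi-likelihood test with Benjamini-Hochberg adjustment over all 10793 genes tested, at an adjusted p under 0.05. Of all genes tested, 11.9% fell and 9.93% rose. The median log2 fold change of the 43 genes was -0.91, and that of all genes 0.03. The fit compared 2 libraries of day 30 with 3 of day 7 and took genotype into account. Both day 30 libraries lay below all 3 of day 7 for 41 of the 43 genes, against 27.8% of all genes, and above them for none, against 26.9%. The genes whose libraries overlapped were Psma3 and Psmg4.

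Among core genes 13 of 14 fell, with a median of -1.03. Psma4, an alpha subunit, was at 286.2, 283.0 and 247.2 CPM in the wild-type, Thpok-sufficient and Thpok-deleted libraries of day 7, and at 84.7 and 107.7 in the Thpok-sufficient and Thpok-deleted libraries of day 30. It had the greatest fall, by 1.47 ± 0.17 on the log2 scale (SE, adjusted p = 0.0121). Psma6, another alpha subunit, was at 252.1, 248.7 and 159.9 at day 7 and at 81.6 and 76.7 at day 30. It fell by 1.34 ± 0.17 (adjusted p = 0.0137), and within day 7 its Thpok-deleted library was the low one. Psmb5, the catalytic subunit that bears the chymotrypsin-like activity, was at 241.8, 222.8 and 241.9 at day 7 and at 83.9 and 112.9 at day 30. It fell by 1.27 ± 0.15 (adjusted p = 0.0120). The other catalytic genes fell as well, Psmb7 by 1.17 ± 0.14 (adjusted p = 0.0118) and Psmb6 by 0.77 ± 0.12 (adjusted p = 0.0176). Psmb6 was at 239.0, 237.5 and 296.7 at day 7 and at 141.3 and 164.1 at day 30.

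Some core genes differed less. Psmb1, the most abundant, was at 627.2, 650.7 and 588.1 at day 7 and at 416.4 and 396.9 at day 30, and fell by 0.56 ± 0.12 (adjusted p = 0.0345). Psma7 was at 383.6, 410.4 and 419.4 at day 7 and at 233.5 and 253.0 at day 30, and fell by 0.72 ± 0.12 (adjusted p = 0.0207). Psmb3, a beta subunit, was at 395.2, 386.8 and 484.0 at day 7 and at 201.8 and 264.8 at day 30, and fell by 0.89 ± 0.12 (adjusted p = 0.0145). The core gene that did not pass was Psma3, an alpha subunit. It was at 362.1, 382.5 and 346.5 at day 7 and at 352.2 and 281.2 at day 30, with a log2 fold change of -0.14 ± 0.13 (adjusted p = 0.457). Its Thpok-sufficient day 30 library lay within the range of day 7. Psma3 ranked below Psma2 in GP66+ cells of day 7 and above it, as the highest Psma gene, at day 30.

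**Figure D3:**
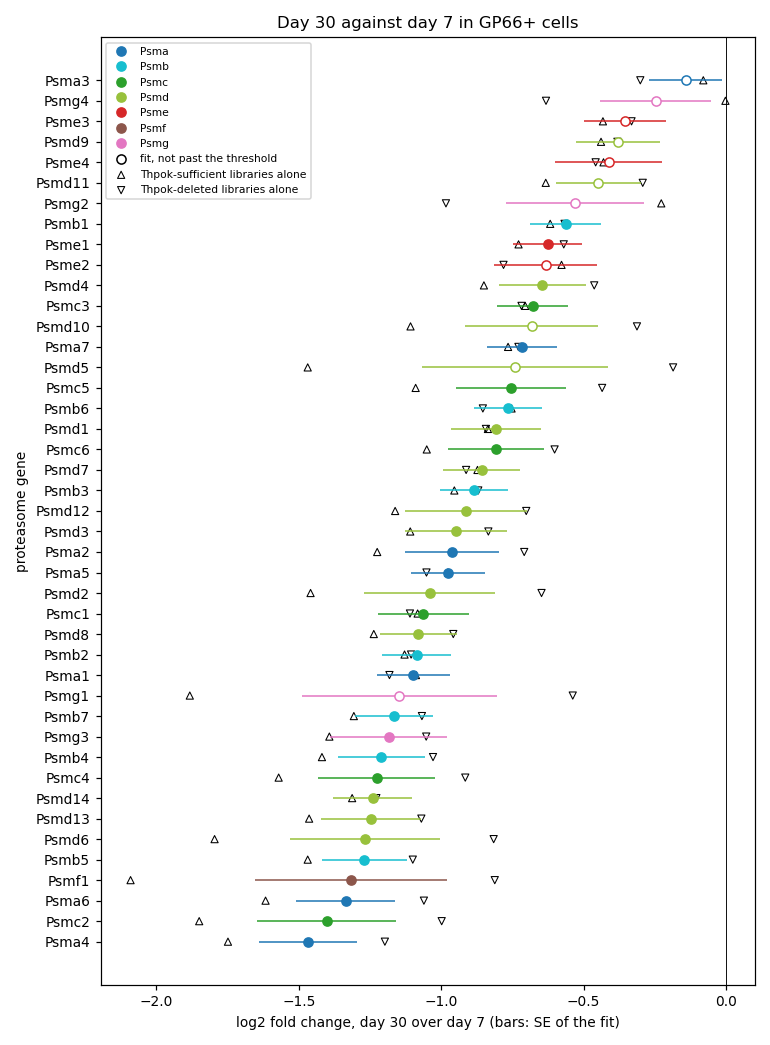
Log2 fold change of day 30 over day 7 (x axis) for each of the 43 tested genes, coloured by family; circles are the fit with its SE, filled where the adjusted p is under 0.05. Triangles compare the Thpok-sufficient libraries alone and the Thpok-deleted libraries alone: all 43 genes lie below 0 in each, with Psmg4 at -0.0024 in the former.

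Of the 20 regulatory genes 16 fell, with a median of -0.89. All 6 ATPase genes were among them. Psmc2 was at 108.6, 93.1 and 93.0 CPM at day 7 and at 28.0 and 46.6 at day 30, and fell by 1.40 ± 0.24 (adjusted p = 0.0210). Psmc4 was at 130.2, 112.4 and 132.2 at day 7 and at 40.8 and 70.1 at day 30, and fell by 1.23 ± 0.20 (adjusted p = 0.0197). The ATPase gene with the smallest difference was the most abundant one, Psmc3, which was at 142.5, 133.6 and 149.3 at day 7 and at 84.7 and 90.8 at day 30 (fall of 0.68 ± 0.12, adjusted p = 0.0230). In these 3 genes the Thpok-sufficient library was the lower of the day 30 pair, and in Psmc1, at 35.5 against 31.5, it was the higher one.

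Among the Psmd genes 10 of 14 fell. Psmd6, a lid subunit, was at 77.7, 69.2 and 77.01 at day 7 and at 21.2 and 43.7 at day 30, and fell by 1.27 ± 0.26 (adjusted p = 0.0304). Psmd13 and Psmd14, the latter the enzyme that removes ubiquitin chains from substrates, fell by 1.25 ± 0.17 (adjusted p = 0.0149) and by 1.24 ± 0.14 (adjusted p = 0.0114). Psmd8 fell by 1.08 ± 0.13 (adjusted p = 0.0127) and Psmd4 by 0.65 ± 0.15 (adjusted p = 0.0396). The 4 Psmd genes that did not pass were the lid subunit Psmd11 (-0.45 ± 0.15, adjusted p = 0.0863) and the 3 assembly chaperones. Psmd5 had a log2 fold change of -0.74 ± 0.33 (adjusted p = 0.157), Psmd9 of -0.38 ± 0.15 (adjusted p = 0.121) and Psmd10 of -0.68 ± 0.23 (adjusted p = 0.0919). Without the chaperones, 10 of 11 Psmd genes fell.

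Fewer of the activator, inhibitor and chaperone genes passed, 3 of 9, with a median of -0.63. Psme1 was at 385.5, 373.5 and 387.5 at day 7 and at 229.0 and 261.0 at day 30, and fell by 0.63 ± 0.12 (adjusted p = 0.0265). Its partner Psme2 was at 412.9, 550.5 and 510.1 at day 7 and at 322.7 and 296.8 at day 30, which gave a like difference of -0.63 with a wider error of 0.18 (adjusted p = 0.0618). Psme2 has a near-identical copy, Psme2b. Psmf1, the inhibitor, was at 26.4, 31.6 and 31.4 at day 7 and at 6.802 and 17.9 at day 30, and fell by 1.32 ± 0.34 (adjusted p = 0.0487). Its day 30 levels rest on 9 and 38 UMIs. Of the chaperones of the core, Psmg3 fell by 1.18 ± 0.21 (adjusted p = 0.0209), from 25.1, 26.5 and 25.4 at day 7 to 9.82 and 12.2 at day 30. Psmg1 had a log2 fold change of -1.15 ± 0.34 (adjusted p = 0.0685), Psmg2 of -0.53 ± 0.24 (adjusted p = 0.170) and Psmg4 of -0.25 ± 0.20 (adjusted p = 0.395).

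Within each genotype, given as values without a test, all 43 genes were lower at day 30, in Thpok-sufficient cells against the mean of the 2 day 7 libraries with intact Thpok and in Thpok-deleted cells against 1 library. The median difference was -1.09 on the log2 scale in Thpok-sufficient and -0.82 in Thpok-deleted cells. In Thpok-sufficient cells the smallest differences were those of Psmg4 (-0.0024) and Psma3 (-0.08), whose libraries overlapped between the days. Cell division moved with the day: 18 of 20 cell cycle genes fell (median -2.52), and their summed level was 3499 to 6067 CPM in GP66+ cells of day 7 and 985.6 and 1711 at day 30. In cells without a UMI of any of 11 cycling genes, 29 of the 43 proteasome genes fell, against 10.6% of all genes, and none rose, against 10.3%. Among those cells proteasome genes held 0.737%, 0.688% and 0.696% of UMIs in the day 7 GP66+ libraries and 0.320% and 0.400% in those of day 30. With cells thinned to 1500 UMIs, and cells below that number left out, 30 fell, against 9.64% of all genes. This kept 571 of 724 Thpok-sufficient and 689 of 735 Thpok-deleted cells of day 30, and nearly all GP66+ cells of day 7. The calls rested on few libraries, and leaving out any 1 of the 5 leaves 1 residual degree of freedom. Without the wild-type library 34 fell, without the Thpok-sufficient day 7 library 18 fell, against 5.03% of all genes, and without the Thpok-deleted day 7 library or either day 30 library no gene of all those tested passed in either direction. The median of the 43 genes was then -1.06 without the Thpok-deleted day 7 library, -0.84 without the Thpok-sufficient and -1.06 without the Thpok-deleted day 30 library. With CD4-like cells alone, which are fewer, 18 of the 43 fell, against 4.53% of all genes.

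The balance of core and regulatory genes did not order the days. Core UMIs exceeded those of the Psmc and Psmd genes 1.93 to 2.172 times in the 7 classes of day 7. The ratio was 2.31 in the Thpok-sufficient day 30 library, above all of these, and 1.96 in the Thpok-deleted one, within them. The medians of the log2 fold changes differed by -0.15, with core lower. That difference was -0.0016 without the Thpok-deleted day 7 library, -0.27 without the Thpok-sufficient day 30 library and -0.0014 without the Thpok-deleted one. These are descriptions of lists, with no test.

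**Figure D4:**
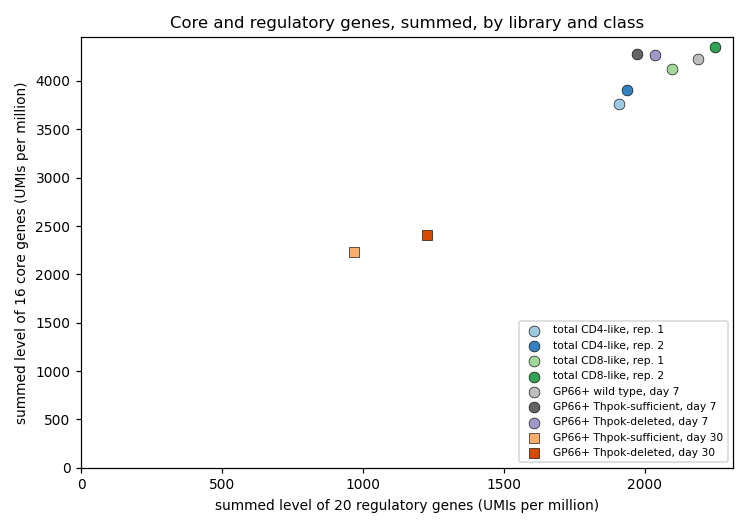
Summed level of the 16 core genes (y axis) against that of the 20 regulatory genes (x axis), both in CPM from 0, 1 point per library and class. Both day 30 libraries (squares) lie low on both axes, at 2236 and 2408 core and 969.7 and 1226 regulatory CPM, and the day 7 classes (circles) lie together above them.

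Genes that work with the proteasome were compared between the same days. The 3 interferon-induced core genes all fell: Psmb9 by 1.46 ± 0.15 (adjusted p = 0.0106), Psmb10 by 0.95 ± 0.12 (adjusted p = 0.0129) and Psmb8 by 0.70 ± 0.13 (adjusted p = 0.0223). Psmb9 was at 380.5, 349.0 and 401.2 at day 7 and at 114.1 and 166.5 at day 30. Their falls lay within the range of the other core genes. Of 11 proteins that bind or assemble the proteasome 3 fell, among them Pomp, the chaperone that matures the core, by 1.15 ± 0.13 (adjusted p = 0.0118), together with the ubiquitin receptor Adrm1 (0.78 ± 0.14, adjusted p = 0.0230) and Shfm1 (0.57 ± 0.14, adjusted p = 0.0459). Among the genes of ubiquitin and its activation, the activating enzyme Uba1 fell by 0.86 ± 0.16 (adjusted p = 0.0244). None of 7 unfolding and shuttle genes changed by the edgeR test, with 1 lower at an unadjusted p under 0.05; the highest of them, Vcp, was at 264.7, 209.9 and 176.3 at day 7 and at 113.4 and 139.7 at day 30. Of 4 genes of the pathway that controls proteasome transcription, Ngly1, the enzyme that processes the factor Nfe2l1, fell by 1.31 ± 0.16 (adjusted p = 0.0126), and Nfe2l1 itself was at 15.2, 18.4 and 14.2 at day 7 and at 24.9 and 25.9 at day 30, which did not pass (0.74 ± 0.21, adjusted p = 0.0599).

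Differences between CD8-like and CD4-like cells of the same day 7 libraries were smaller, from -0.78 to 0.60 on the log2 scale, and went both ways. By the same test over 10201 genes, with the library as a block, 13 of the 43 were higher in CD8-like cells and 3 lower. Of all genes tested, 18.8% were higher and 19.5% lower. The median log2 fold change was 0.12, against -0.02 for all genes. In both libraries 28 of the 43 were higher, against 36.8% of all genes, and 6 lower, against 38.9%. Core genes gave 6 higher and 1 lower of 14, regulatory genes 7 higher and none lower of 20, and the others none higher and 2 lower of 9.

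Psmd13, a lid subunit, had the greatest difference among the genes that were higher. It was at 104.8 and 106.5 CPM in CD4-like cells of replicates 1 and 2, and at 149.4 and 179.7 in CD8-like cells, a log2 fold change of 0.60 ± 0.08 (adjusted p = 2.83e-11). The difference was between 0.36 and 0.80 in each of the 3 wells of replicate 1 and in replicate 2. Psmb3 was at 359.8 and 377.3 in CD4-like and at 473.9 and 490.3 in CD8-like cells (0.37 ± 0.06, adjusted p = 4.10e-08). Among the other genes that rose were the ATPase Psmc6 (0.34 ± 0.09, adjusted p = 0.000497), the deubiquitinase Psmd14 (0.34 ± 0.08, adjusted p = 0.000337), the chaperone Psmd9 (0.29 ± 0.10, adjusted p = 0.0117) and the catalytic subunit Psmb6 (0.25 ± 0.07, adjusted p = 0.00163). For Psmb6 the levels were 209.0 and 223.6 in CD4-like and 243.2 and 278.5 in CD8-like cells.

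The genes that were lower in CD8-like cells included the greatest difference of all 43. Psmg1, a chaperone that starts the assembly of the alpha ring, was at 33.2 and 30.6 in CD4-like and at 17.7 and 21.2 in CD8-like cells, a log2 fold change of -0.78 ± 0.13 (adjusted p = 1.57e-07). The difference lay between -1.01 and -0.52 over the 3 wells and replicate 2. Psma6 was at 221.8 and 225.7 in CD4-like and at 187.9 and 175.0 in CD8-like cells (-0.32 ± 0.07, adjusted p = 7.30e-05). Psme2 was at 507.1 and 579.0 in CD4-like and at 419.6 and 538.5 in CD8-like cells (-0.21 ± 0.06, adjusted p = 0.00159), lower in both libraries although the levels of the classes overlapped.

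Of the interferon-induced core genes Psmb10 rose by 0.23 ± 0.07 (adjusted p = 0.00332), while Psmb8 (-0.06 ± 0.05, adjusted p = 0.429) and Psmb9 (0.12 ± 0.06, adjusted p = 0.132) did not pass. Among other genes of the pathway the receptor Adrm1 (0.22), the deubiquitinase Uchl5 (0.24) and the shuttle gene Faf1 (0.35) were higher on the log2 scale, and the ubiquitin fusion gene Rps27a (-0.22), the factor Nfe2l1 (-0.44) and the protease that activates it, Ddi2 (-0.59), were lower. Each of the 20 cell cycle genes passed with a higher level on the CD8-like side (median 0.88), and 10 of 15 interferon response genes were lower. In cells without a cycling UMI 6 proteasome genes were higher and 4 lower, against 13.5% and 13.6% of all genes; the part of cell division in the other calls was not tested. The counts depended on the method: 4 were higher with library totals as the only scaling, 2 with DESeq2, and 1 without the library block, with 3, 2 and 1 lower. Of all genes 13.8%, 7.37% and 5.14% were then higher and 24.4%, 6.16% and 6.12% lower. Psmd13 and Psmg1 passed under each of these 3.

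**Figure D5:**
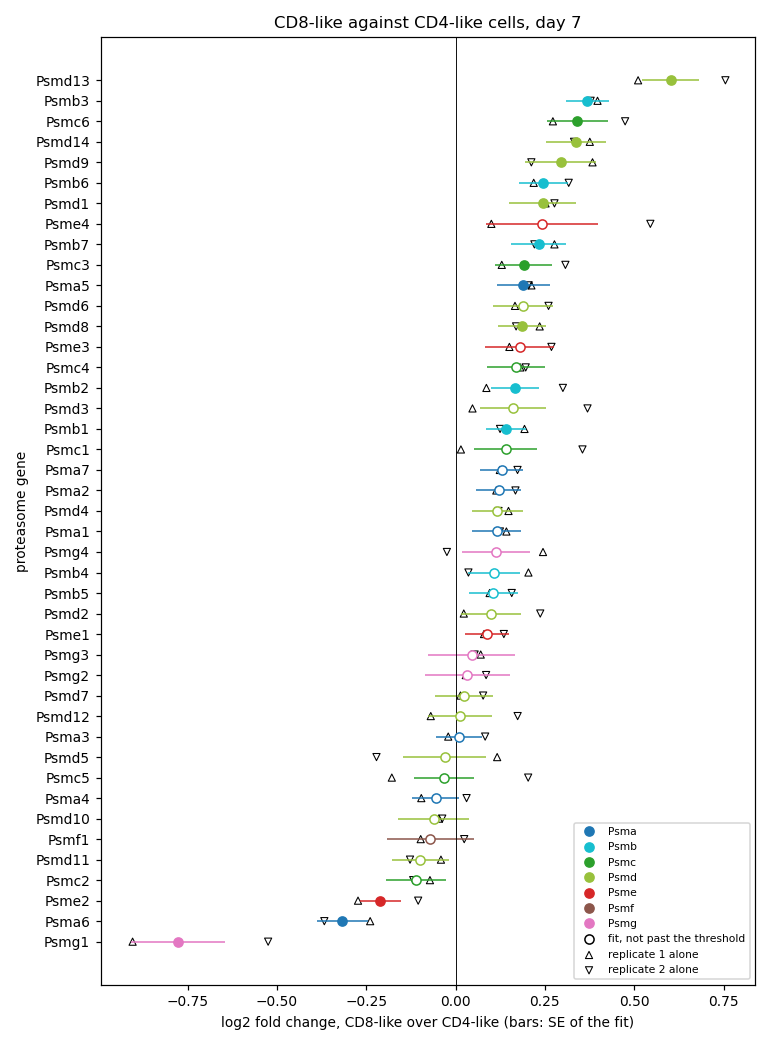
Log2 fold change of CD8-like over CD4-like cells (x axis) for each of the 43 tested genes, coloured by family; circles are the fit with its SE, filled where the adjusted p is under 0.05, and triangles the total libraries one at a time. Psmd13 lies farthest to the right and Psmg1 farthest to the left, in both libraries.

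Among CD4-like cells of day 7, GP66+ cells with intact Thpok (wild-type and Thpok-sufficient libraries) were compared with those of the total libraries. No proteasome gene passed edgeR's test, and 1 was higher and none lower at an unadjusted p under 0.05, against 705 higher and 623 lower of all 10262. DESeq2 called none either. Of all genes tested, 0.477% were higher and 0% lower. The median of the 43 genes was 0.08. Both GP66+ libraries lay above both total libraries for 19 of the 43 genes, against 2398 of all 10262. They lay below both for 4, against 2356 of all genes. The greatest differences, none past the threshold, were in the chaperone Psmd5 (-0.33 ± 0.15, adjusted p = 0.430), in Psmb7 (0.31 ± 0.12, adjusted p = 0.366) and in the chaperone Psmg2 (-0.28 ± 0.17, adjusted p = 0.524).

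Thpok deletion was set against intact Thpok over the 5 GP66+ libraries with the day in the fit, the same libraries as in the comparison of days. No proteasome gene passed edgeR's test, against 0.602% of all genes higher and 0.287% lower; 1 was higher and none lower at an unadjusted p under 0.05, against 948 and 964 of all 10793, and DESeq2 called none. The median of the 43 genes was 0.11. The Thpok-deleted library was above every other GP66+ library of its day for 20 genes at both days, against 25.5% of all genes, and below for 4, against 25% of all genes. The greatest differences, none past the threshold, were in Psmf1 (0.46 ± 0.30, adjusted p = 0.496), Psmd6 (0.42 ± 0.25, adjusted p = 0.447) and Psma6 (-0.41 ± 0.17, adjusted p = 0.294).

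Psma6 was at 159.9 CPM in the Thpok-deleted library of day 7, against 252.1 and 248.7 in the wild-type and Thpok-sufficient ones, and at 76.7 against 81.6 at day 30, where the levels lay close together. Psmb3, chosen after its values were seen, was the gene with the smallest unadjusted p (0.0261, adjusted p = 0.215). It was at 484.0 in the Thpok-deleted library of day 7, against 395.2 and 386.8, and at 264.8 against 201.8 at day 30, the higher one at both days. The Thpok-deleted day 7 library held 243 CD8-like cells, against 37 and 49 in the wild-type and Thpok-sufficient ones; their part in these levels was not tested.

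Whether the genotype difference changed with the day could be tested with 1 residual degree of freedom. No proteasome gene passed edgeR's test for this interaction, as did none of all genes (0% higher and 0% lower); 3 proteasome genes were higher and none lower at an unadjusted p under 0.05, against 546 and 197 of all 11313, and DESeq2 called none of them. Given as values without a test, the median genotype difference of the 43 genes was 0.03 at day 7, against the mean of the 2 libraries with intact Thpok, with 23 above 0 and 20 below, and 0.27 at day 30, with 34 above and 9 below. The greatest interactions were those of Psmg1 (1.30 ± 0.34), Psmd5 (1.24 ± 0.31) and Psmf1 (1.23 ± 0.43), each with an adjusted p of 0.703. In the Thpok-sufficient day 30 library these genes had 12, 14 and 9 UMIs. With library totals as the only scaling the median interaction of all genes moved by 0.26 on the log2 scale, and that of the 43 genes moved from 0.23 to 0.50.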

How the data were processed

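The 7 libraries were made with the 10x Single Cell 3' kit, chemistry version 2, and sequenced with a second read of 1 of 2 lengths, per the labels' protocols, which do not say which library had which. The authors deposited UMI counts per gene and barcode on mm10, made with bcl2fastq 2.17 and Cell Ranger (version not given in the sources used here), per the submitters' processing notes. Total replicate 1 was deposited as 3 capture wells, summed here as 1 library.

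Cells were barcodes with at least 10% of the 99th percentile of UMIs among the top 3000 barcodes of a well, 500 genes and at most 10% mitochondrial UMIs. This left 16114 cells. Leiden clusters with B cell or myeloid markers (218 cells) were left out, by marker thresholds set after the clusters were seen, and no doublet caller was run. The gene names were those of the files, and a UMI counts 1 captured transcript end without regard to length.

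UMIs were added up over the cells of each library or class, and these sums entered edgeR 4.0.16's quasi-likelihood test (TMM, filterByExpr), with Benjamini-Hochberg adjustment over all genes tested and a threshold of 0.05. The lineage fit had the library as a block, since both classes came from 1 capture, and their library differences correlated over 7931 genes (r = 0.724). Residual degrees of freedom were 1 for lineage, 2 for specificity, 2 for genotype and day, and 1 for their interaction. For lineage it came from how far the total libraries differed in CD8-like over CD4-like. For the interaction it came from wild-type against Thpok-sufficient cells at day 7, which differ in Cre and reporter. Those of genotype and day came from this same pair and from genotype differences that were unlike between the days. The script was tested on simulated data. DESeq2 1.42.0, other scalings, filters and cell choices, and leaving out each library were the alternatives.

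The members and gene lists were chosen with earlier results of these data known. Genes were named by rule: the 2 most abundant of each family, up to 6 per direction with the greatest change past the threshold in a comparison and at least 20 CPM, the 3 greatest where fewer than 3 passed, and members under 10 UMIs. Psma2, Psma3's rank, Psmd10, Psmd11, Psme4, Psmg3 and Nfe2l1 at day 30 were added after their values were seen. Results for some listed genes are not reported here.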

Additional observations from a re-analysis of the deposited data

How the results depend on the processing

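Between day 7 and day 30 all 43 genes lay below 0 as reported and under 9 of 13 alternatives, and 42 did under the other 4: CD4-like cells alone, cells thinned to 1500 UMIs, and without either Thpok-deleted library. The number called lower was 32 in the fit as reported and 29 to 36 under other scalings, filters, tools and cell choices, except for CD4-like cells alone (18); it was 0 to 34 when each library was left out in turn (18 without the Thpok-sufficient day 7 library). With library totals as the only scaling, the median of all genes between the days moved by -0.18 on the log2 scale. As an alternative chosen after seeing the data, of the 33 genes without a near-identical stretch in another gene at the transcript end 23 fell, and of the 10 with one 9 did.

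Between lineages the 13 higher calls, against 18.8% of all genes, became 4 with library totals alone, against 13.8%, and 2 with DESeq2, against 7.37%. They became 6 with the stricter cell filter, against 16.9% of all genes, and 6 in cells without cycling UMIs, against 13.5%. In cells thinned to 1500 UMIs 2 were higher, against 11.4% of all genes, and 1 was lower in place of 3, against 10.6%. With no replicate block, so without pairing the classes of a library, 1 was higher and 1 lower, against 5.14% and 6.12% of all genes. Leaving out a total library left no residual degrees of freedom and so no test. The difference between the medians of core and regulatory genes (core minus regulatory) varied when libraries were left out one at a time. It changed sign for lineage, specificity and genotype, and not between days. For lineage it was -0.026 with both libraries and ranged from -0.045 to 0.0102. For specificity it was 0.037 with all and ranged from -0.0255 to 0.127, negative without the Thpok-sufficient library. For genotype it was -0.077 with all and ranged from -0.149 to 0.121, positive without either day 30 library. Between days it ranged from -0.27 to -0.0014. The causes of these changes were not tested.

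The number of libraries limits these comparisons: groups of 1 to 3 libraries give 1 or 2 residual degrees of freedom. Counts were low at day 30, where Psme4, Psmf1, Psmg1, Psmg2 and Psmg3 had 9 to 38 UMIs per library. In the Thpok-sufficient and Thpok-deleted libraries of day 30, Psmd5 had 14 and 52 UMIs and Psmd6 had 28 and 93.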
